A study of Mus musculus with 8 samples.

Results

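The genes described are 10 members of the BCL2 family, whose proteins decide whether a cell survives or dies through its mitochondria, out of 23413 gene symbols counted in tumor-associated macrophages (TAMs). They were taken by symbol: the survival genes Bcl2, Bcl2l1, Mcl1, Bcl2a1a, Bcl2a1b and Bcl2a1d, and the death genes Bax, Bbc3, Pmaip1 and Bcl2l11. All 10 had counts in each of 8 mice and passed the filter on low counts in each comparison. The mice were C57BL/6 (B6) males of 8 to 10 weeks that carried B16F10 tumors, a melanoma line of the same strain, under the skin. They received the vehicle DMSO (2 mice), the thiopeptide antibiotic thiostrepton by intraperitoneal (I.P.) injection (4 mice), or thiostrepton injected beside the tumor (paratumor, 2 mice) at 20 mg/kg, on days 6 and 12. On day 18, TAMs were sorted from the tumors as CD45+F4/80+CD11b+Gr-1- cells, and 1 RNA library was sequenced per mouse. The I.P. dose of these mice and how their DMSO controls were injected are not given in the sources used here. Treatment and route therefore cannot be told apart in either comparison with DMSO. The I.P. doses in the study's tumor growth experiments were higher than the paratumor dose. Route and dose thus cannot be told apart between paratumor and I.P. mice.

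In the mitochondrial pathway of apoptosis, the effector proteins BAX and BAK open the outer mitochondrial membrane and cytochrome c escapes. BCL2, BCL-XL (Bcl2l1), MCL1 and A1 (the Bcl2a1 genes) hold the effectors in check. The BH3-only proteins BIM (Bcl2l11), PUMA (Bbc3) and NOXA (Pmaip1) bind the survival proteins and release the effectors. NOXA binds mainly MCL1 and A1, whereas BIM and PUMA bind all of the survival proteins. In macrophages and other myeloid cells, MCL1 and A1 are known as short-lived survival proteins, and Bcl2a1 is a well known target gene of NF-kB.

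The 3 Bcl2a1 genes are near-identical copies on mouse chromosome 9, and the counts could split their reads in more than 1 way. Over 516 coding bases, Bcl2a1a and Bcl2a1b differed at 11 positions (97.9% identity), Bcl2a1a and Bcl2a1d at 7 (98.6%), and Bcl2a1b and Bcl2a1d at 6 (98.8%). Their first 120 coding bases are shown because they hold 7 of the 12 positions at which the copies differ, and thus where a read can be assigned. They lie within 1 coding exon each, at chr9:88957051-88957170 on the plus strand for Bcl2a1a, chr9:89199360-89199479 on the plus strand for Bcl2a1b and chr9:88731600-88731719 on the minus strand for Bcl2a1d (GRCm38). Capitals mark the differing positions.
Bcl2a1a: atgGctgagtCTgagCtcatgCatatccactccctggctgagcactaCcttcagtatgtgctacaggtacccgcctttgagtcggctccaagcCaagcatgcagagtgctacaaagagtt
Bcl2a1b: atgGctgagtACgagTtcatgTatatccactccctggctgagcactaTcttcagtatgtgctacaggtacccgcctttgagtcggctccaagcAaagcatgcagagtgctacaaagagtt
Bcl2a1d: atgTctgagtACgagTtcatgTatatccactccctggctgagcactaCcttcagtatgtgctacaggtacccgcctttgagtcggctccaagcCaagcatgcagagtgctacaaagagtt
Between these capitals run identical stretches. Of all windows of 50 bases in the longest transcript, 31.0% were found in no other gene for Bcl2a1a, 20.8% for Bcl2a1b and 20.5% for Bcl2a1d. The corresponding share was 86.2% for Bax and at least 99.8% for the 6 other members. The separate values of the 3 copies are therefore uncertain, and their sum is given beside them. Exons of Bcl2a1b also overlap those of Gm29094 on the same strand over 401 bases, those of Bax overlap Gm45808 on the same strand over 192 bases, and those of Bcl2 overlap D630008O14Rik on the opposite strand over 558 bases; none of these neighbours has a row of its own in the counts.

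The libraries held 14127506 to 17577466 counts. All 12 macrophage markers were detected in each mouse, with a summed level of 19490 to 58300 CPM (counts divided by library size, which was scaled by TMM over the 8 mice). All 8 melanoma markers were also detected in each library, at 484.3 to 3063 CPM summed, although the cells had been sorted as CD45+. The paratumor libraries stood somewhat apart: of the 9328 genes that averaged 5 CPM or more, 0.525% and 0.364% were without any count in the paratumor mice, against 0.0107% to 0.129% in the others. A differentially expressed gene (DEG) is one that passed an unadjusted P of 0.05 and 2-fold in edgeR's quasi-likelihood test. The study's methods name edgeR with limits on P and fold, and do not say which edgeR test was used or whether P was adjusted. By that rule, which uses no correction for the number of genes, 243 of 12174 genes were DEGs between I.P. and DMSO mice, 591 of 11680 between paratumor and DMSO mice, and 860 of 12206 between paratumor and I.P. mice. Of the 591, 45.4% were higher. Scaled by library size alone, the same comparison gave 625 DEGs, of which 31.4% were higher, and the median of all genes moved from 0.02 to -0.13. At a Benjamini-Hochberg adjusted p under 0.05 edgeR's quasi-likelihood test left 0 genes in each, with 418, 632 and 1049 genes at an unadjusted P under 0.05. At the adjusted threshold the likelihood ratio test called 10, 179 and 265 genes and DESeq2 called 19, 107 and 234. Other settings of the quasi-likelihood test on all mice called 0 genes in I.P. against DMSO, up to 19 in paratumor against DMSO (10 with no filter, 4 with all groups in 1 fit, 19 with a replicate block and 2 with a crossed one) and up to 2 in paratumor against I.P. (2 with all groups in 1 fit and 1 with the block). No DEG named below passed correction over all genes in edgeR's quasi-likelihood test as described. The paratumor and I.P. comparisons share the same DMSO mice.

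Of the 10 members, 0 were DEGs after I.P. thiostrepton, against 2.0% of all genes tested (1.53% as higher). After paratumor thiostrepton 1 of 10, Pmaip1, was a DEG and higher than in DMSO mice, against 5.06% of all genes (2.29% as higher). The same gene was the 1 member that differed by this rule between paratumor and I.P. mice, against 7.05% of all genes (2.41% as higher). The median log2 fold change of the members was 0.35 for I.P. and 0.54 for paratumor against DMSO, and 0.05 for paratumor against I.P., where the median of all genes tested was 0.02 in each comparison. Groups without overlap between their mice were seen for 1 of 10 members in I.P. against DMSO (14.1% of all genes), for 6 of 10 in paratumor against DMSO (34.3%) and for 2 of 10 in paratumor against I.P. (18.5%). Of the 6 members, 3 were the Bcl2a1 copies, which share reads. In bulk RNA from sorted cells, a lower value from fewer cells of a type and one from less RNA per cell cannot be told apart.

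**Figure D1:**
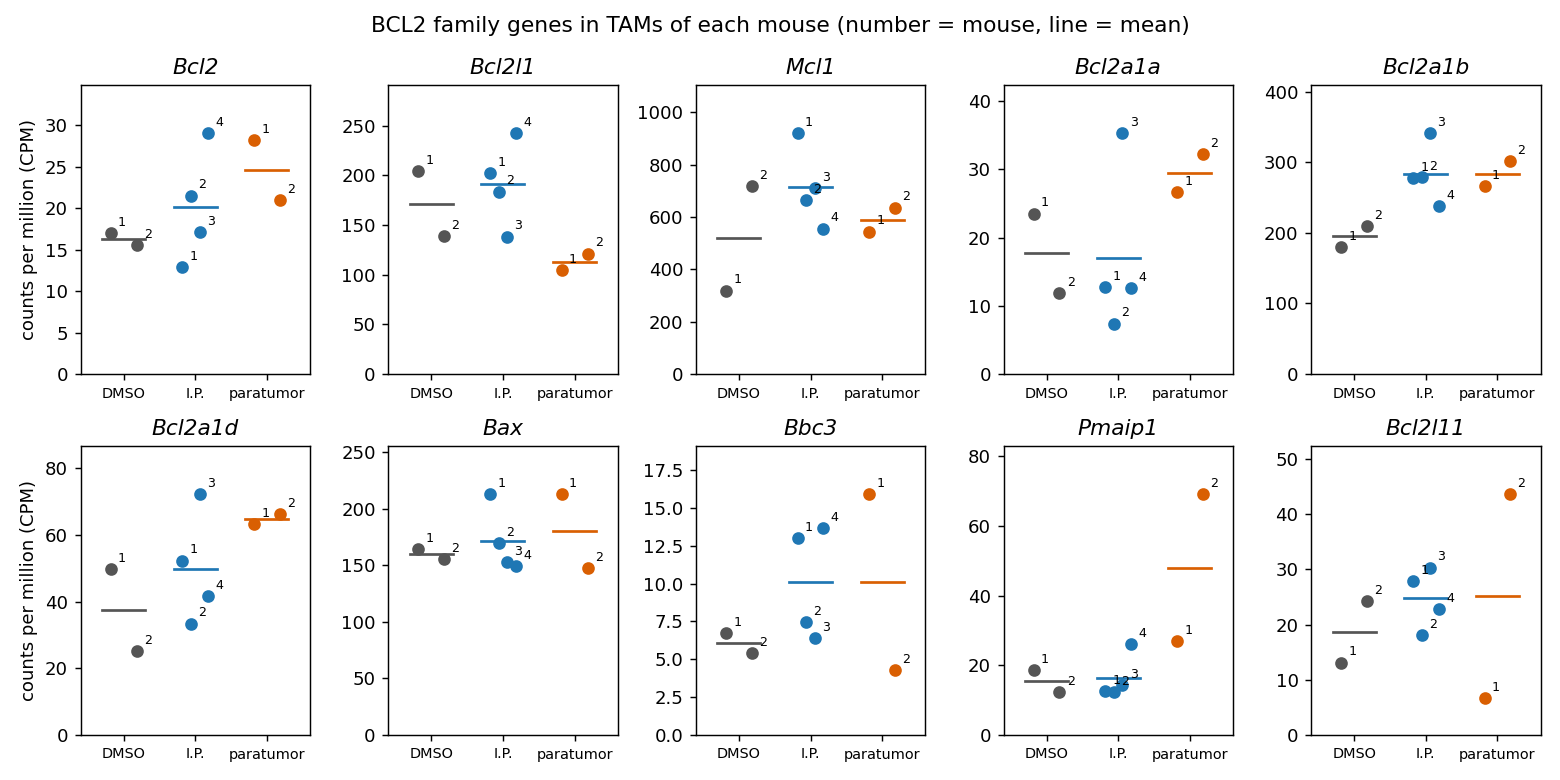
CPM (linear vertical axes from 0) of the 10 members in each mouse, with mouse numbers beside the points and a line at each group's mean (2 DMSO, 4 I.P. and 2 paratumor mice). Pmaip1 was above all other mice in paratumor mouse 2 (69.2 CPM), and Bcl2l11 in the paratumor mice was both the lowest and the highest of all (6.66 and 43.7 CPM).

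**Figure D2:**
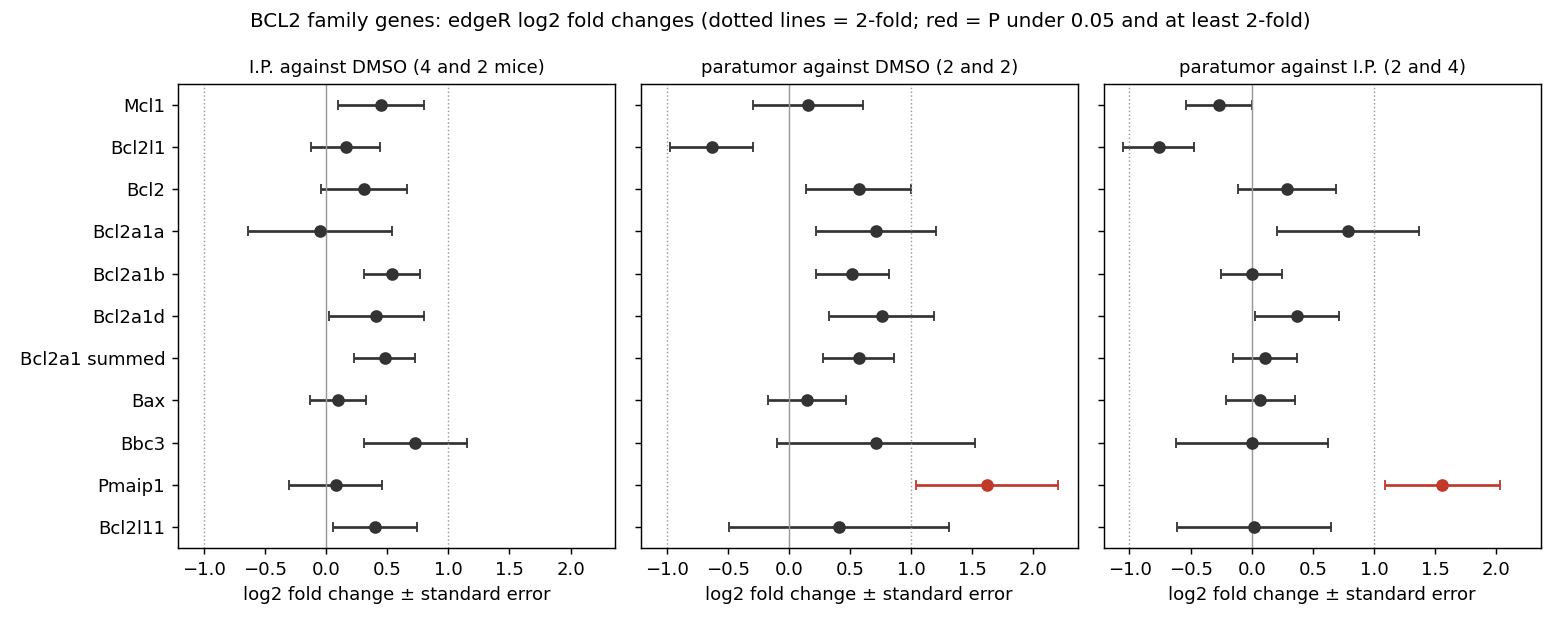
Log2 fold change with its standard error (horizontal axis) for the 10 members and for the summed Bcl2a1 copies in the 3 comparisons; dotted lines mark 2-fold, and red marks an unadjusted P under 0.05 with at least 2-fold. Pmaip1 is the 1 red point in both paratumor comparisons (1.62 and 1.56).

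Per kilobase of exon, the survival transcripts of the TAMs were dominated by Bcl2a1 and Mcl1. The median CPM per kilobase over the 8 mice was 332.5 for Bcl2a1b (220.1 to 417.5), 190.5 for Mcl1 (93.4 to 269.3), 101.2 for Bax (93.7 to 135.1) and 59.2 for Bcl2a1d (29.1 to 83.8). Bcl2l1 followed at 35.1 (22.9 to 52.9) and Bcl2a1a at 22.2 (9.06 to 43.1). The BH3-only genes lay lower, Pmaip1 at 6.02 (4.47 to 25.3), Bbc3 at 3.34 (2.02 to 7.51) and Bcl2l11 at 2.93 (0.829 to 5.44), and Bcl2 was the lowest at 2.08 (1.41 to 3.17). In this order, neighbours overlapped in their ranges over the mice except for Bax and Bcl2a1d. The places of the separate Bcl2a1 copies hold only for the reads as they were assigned.

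Summed, the Bcl2a1 copies made up a median of 65.4% of the survival transcripts per length (55.4% to 69.8% over the 8 mice). Mcl1 made up 27.5% (20.9% to 38.7%) and Bcl2l1 5.79% (3.70% to 9.97%). Bcl2 held 0.351% and Bcl2l2, the gene of the survival protein BCL-W, 0.0979%. With the longest transcript in place of all exons the Bcl2l1 median was 9.87%, and those of Bcl2a1 and Mcl1 were 61.3% and 26.1%. The order of the 5 medians was the same with either length. Whether reads shared by the Bcl2a1 copies were counted is not given, so the shares hold only for the reads as counted.

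**Figure D3:**
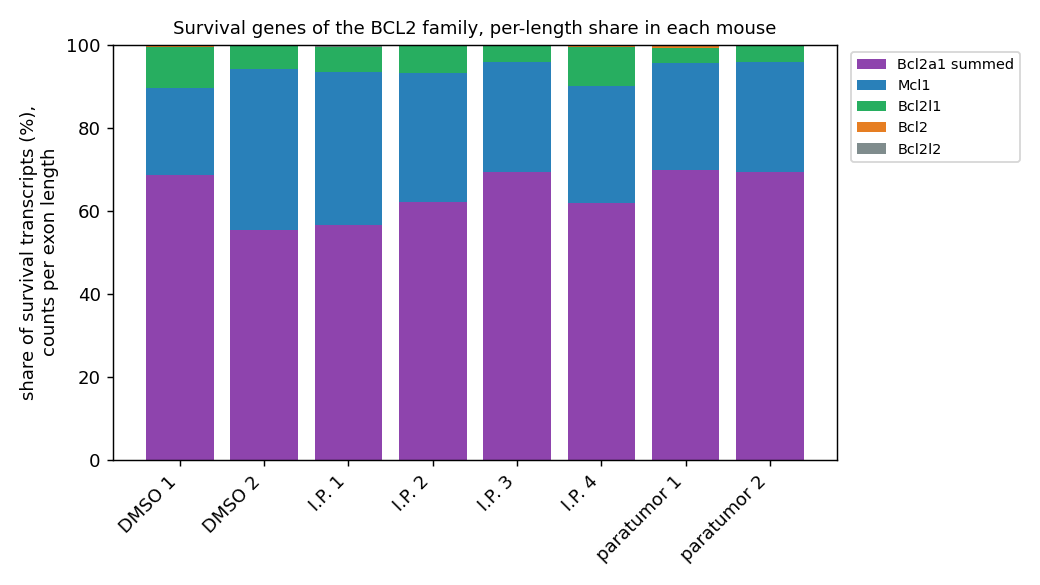
Share in percent (vertical axis) of each survival gene among the survival transcripts of 1 mouse per bar, from counts divided by the length of all exons. The summed Bcl2a1 copies hold between 55.4% and 69.8% of each bar and Mcl1 most of the rest, while Bcl2 and Bcl2l2 are barely visible.

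Mcl1 (chr3:95658788-95663176, plus strand, GRCm38), the survival gene with the highest CPM, showed no difference between groups beyond the spread of its mice. It was at 319.3 and 718.3 CPM in the DMSO mice, at 920.5, 665.9, 710.4 and 555.7 CPM in the I.P. mice and at 543.9 and 636.3 CPM in the paratumor mice. DMSO mouse 1 was the lowest of the 8, and the groups overlapped. The log2 fold change was 0.45 ± 0.35 (SE, adjusted p = 0.980) for I.P. and 0.16 ± 0.45 (adjusted p = 0.9999) for paratumor against DMSO in edgeR's quasi-likelihood test. The DMSO mice decided the first value: it was 1.16 without DMSO mouse 2, where Mcl1 met the DEG rule, and -0.01 without DMSO mouse 1.

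Bcl2a1b, the A1 copy to which most of their counts were assigned, had a higher value in each of the 4 I.P. mice than in either DMSO mouse. Its level was 179.8 and 210.0 CPM in the DMSO mice, 277.7, 279.1, 341.1 and 237.6 CPM in the I.P. mice, and 265.6 and 302.0 CPM in the paratumor mice. The difference of I.P. from DMSO was 1.45-fold (log2 0.54 ± 0.23, adjusted p = 0.980 in edgeR's quasi-likelihood test); it passed the unadjusted P of 0.05 and missed the 2-fold limit. Against DMSO the paratumor value was similar in size, at log2 0.52 ± 0.30 (adjusted p = 0.9999), and paratumor and I.P. differed by 0.00 ± 0.25 (adjusted p = 0.9996).

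Bcl2a1a and Bcl2a1d varied more between mice. Bcl2a1a was at 23.5 and 11.8 CPM in the DMSO mice, 12.7, 7.42, 35.3 and 12.7 CPM in the I.P. mice and 26.7 and 32.3 CPM in the paratumor mice. Bcl2a1d was at 49.8 and 25.1 CPM in the DMSO mice, 52.3, 33.4, 72.4 and 41.6 CPM in the I.P. mice and 63.2 and 66.2 CPM in the paratumor mice. Both paratumor mice lay above both DMSO mice for either copy, and I.P. mouse 3 lay above them all. Neither differed by the test, with log2 changes for paratumor against DMSO of 0.71 ± 0.49 and 0.76 ± 0.43 (adjusted p = 0.9999 for both).

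The sum of the copies does not depend on how shared reads were split among them, provided that such reads were counted, and was nearly the same in both DMSO mice. It includes the fourth gene Bcl2a1c, which had 6 to 20 counts per library. The sum was 253.7 and 247.7 CPM in the DMSO mice, 343.1, 320.4, 449.9 and 292.2 CPM in the I.P. mice and 356.6 and 401.3 CPM in the paratumor mice. The I.P. mice and the paratumor mice each lay above both DMSO mice. Such a lack of overlap was seen for 14.1% of all genes in I.P. and 34.3% in paratumor against DMSO. The change was 1.40-fold for I.P. (log2 0.48 ± 0.25, adjusted p = 0.980) and 1.49-fold for paratumor (log2 0.57 ± 0.29, adjusted p = 0.996), and neither met the criterion. The sum kept its direction when any 1 mouse was left out, from 0.34 to 0.56 for I.P. and from 0.45 to 0.65 for paratumor. The ratio of Bcl2a1b to Bcl2a1a counts ran from 7.64 in DMSO mouse 1 to 37.6 in I.P. mouse 2 with no order by treatment.

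Bcl2l1 (chr2:152780668-152831728, minus strand, GRCm38), which encodes BCL-XL, was lower in the paratumor mice than in every other mouse. Of all genes, 34.3% had no overlap between paratumor and DMSO mice, and 18.5% between paratumor and I.P. mice. Bcl2l1 was at 204.3 and 138.7 CPM in the DMSO mice, 202.1, 183.6, 138.4 and 242.4 CPM in the I.P. mice and 104.8 and 121.3 CPM in the paratumor mice. Against I.P. the paratumor value was 1.69-fold lower (log2 -0.76 ± 0.29, adjusted p = 0.531 in edgeR's quasi-likelihood test), which passed the unadjusted P of 0.05 and fell short of 2-fold. Against DMSO it was lower by log2 -0.63 ± 0.34 (adjusted p = 0.9999). I.P. and DMSO mice overlapped, with a log2 change of 0.16 ± 0.28 (adjusted p = 0.980).

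Bcl2 (chr1:106538178-106714274, minus strand, GRCm38) was at 17.0 and 15.6 CPM in the DMSO mice, 12.9, 21.5, 17.2 and 29.1 CPM in the I.P. mice and 28.2 and 21.0 CPM in the paratumor mice. Both paratumor mice lay above both DMSO mice, and the I.P. mice lay on either side. The log2 change was 0.57 ± 0.43 (adjusted p = 0.9999) for paratumor and 0.31 ± 0.35 (adjusted p = 0.980) for I.P. against DMSO. The 4 mice with the highest Bcl2 were also the 4 with the highest summed melanoma markers, namely paratumor mouse 1 (3063 CPM), I.P. mouse 4 (1759 CPM), I.P. mouse 2 (1044 CPM) and paratumor mouse 2 (753 CPM), whereas the 4 other mice held 484.3 to 707.2 CPM. The part of melanoma RNA in the Bcl2 level was not tested.

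Pmaip1 (chr18:66458533-66465565, plus strand, GRCm38), which encodes NOXA, rose after paratumor thiostrepton by the DEG rule. It was at 18.5 and 12.4 CPM in the DMSO mice (273 and 215 counts), 12.6, 12.2, 14.4 and 26.1 CPM in the I.P. mice, and 26.9 and 69.2 CPM in the paratumor mice (400 and 951 counts). Both paratumor mice lay above all 6 others, paratumor mouse 1 only just above I.P. mouse 4. Groups without overlap made up 34.3% of all genes against DMSO and 18.5% against I.P. mice. The rise of Pmaip1 was 3.07-fold against DMSO (log2 1.62 ± 0.58, adjusted p = 0.846) and 2.95-fold against I.P. (log2 1.56 ± 0.47, adjusted p = 0.398) in edgeR's quasi-likelihood test, the second being the test of the difference between the treatments. The I.P. value against DMSO was 0.08 ± 0.38 (adjusted p = 0.991).

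The Pmaip1 calls depended on single mice. Without paratumor mouse 2 the log2 change was 0.74 against DMSO (adjusted p = 0.159) and 0.72 against I.P. (adjusted p = 0.460), and neither met the rule. Without paratumor mouse 1 it was 2.14 and 2.08. Without DMSO mouse 1 or DMSO mouse 2 the change against DMSO was 1.93 or 1.35, and neither met the rule. Against I.P. it met the rule when any 1 I.P. mouse was left out (1.44 to 1.88). With 1 mouse left in a group, that mouse is assumed to vary like the mice of the other group. Without 1 paratumor mouse, many more of all genes met the rule than with both.

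Markers of other cells also differed between the mice and ran only in part with Pmaip1. The summed neutrophil markers were 296.6 and 549.8 CPM in the paratumor mice, against 186.6 and 197.9 CPM in DMSO and 135.1 to 195.1 CPM in I.P. mice. The 2 paratumor mice stood in the same order as for Pmaip1. I.P. mouse 4, with the next most Pmaip1 (26.1 CPM), held the lowest neutrophil sum of all (135.1 CPM). Of 12 tested neutrophil markers, 6 were higher by the DEG rule in paratumor than in DMSO mice, against 2.29% of all genes tested. Among them were the calcium-binding S100a9 (log2 3.24 ± 1.06) and the granule genes Ngp (6.22), Ltf (6.43) and Lcn2 (4.58). In the DMSO mice, Ngp had 11 and 2 counts, Ltf 5 and 0, and Lcn2 4 and 10. These 3 passed the filter on low counts only through the paratumor mice and could be called only as higher. Without paratumor mouse 2 the log2 changes were smaller, at 1.92 for S100a9, 3.33 for Ngp, 3.21 for Ltf and 1.06 for Lcn2. Lcn2 was also higher by the DEG rule in I.P. than in DMSO mice (2.54 ± 1.05). All 13 neutrophil markers in the table had counts in both paratumor mice, and also in DMSO mouse 1 and I.P. mouse 1, while 2 to 5 of them had none in each of the 4 other mice. The lymphocyte markers summed to 150.1 and 196.3 CPM in paratumor mice, 70.8 and 81.7 CPM in DMSO mice and 99.9 to 164.7 CPM in I.P. mice. The Gr-1- gate is meant to leave out neutrophils, and how far it did so was not tested. The melanoma markers summed to 753 CPM in paratumor mouse 2, which had the most Pmaip1, and were highest in the mice with the next most Pmaip1, paratumor mouse 1 (3063 CPM) and I.P. mouse 4 (1759 CPM). By the DEG rule, 3 of the 8 melanoma markers were higher in paratumor than in DMSO mice, against 2.29% of all genes. These were Sox10, Dct and Tyrp1. The 3 calls rested on paratumor mouse 1, without which the log2 changes were 0.61, 0.22 and 0.40. The part of neutrophil, lymphocyte and melanoma RNA in the Pmaip1 result was not tested.

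**Figure D4:**
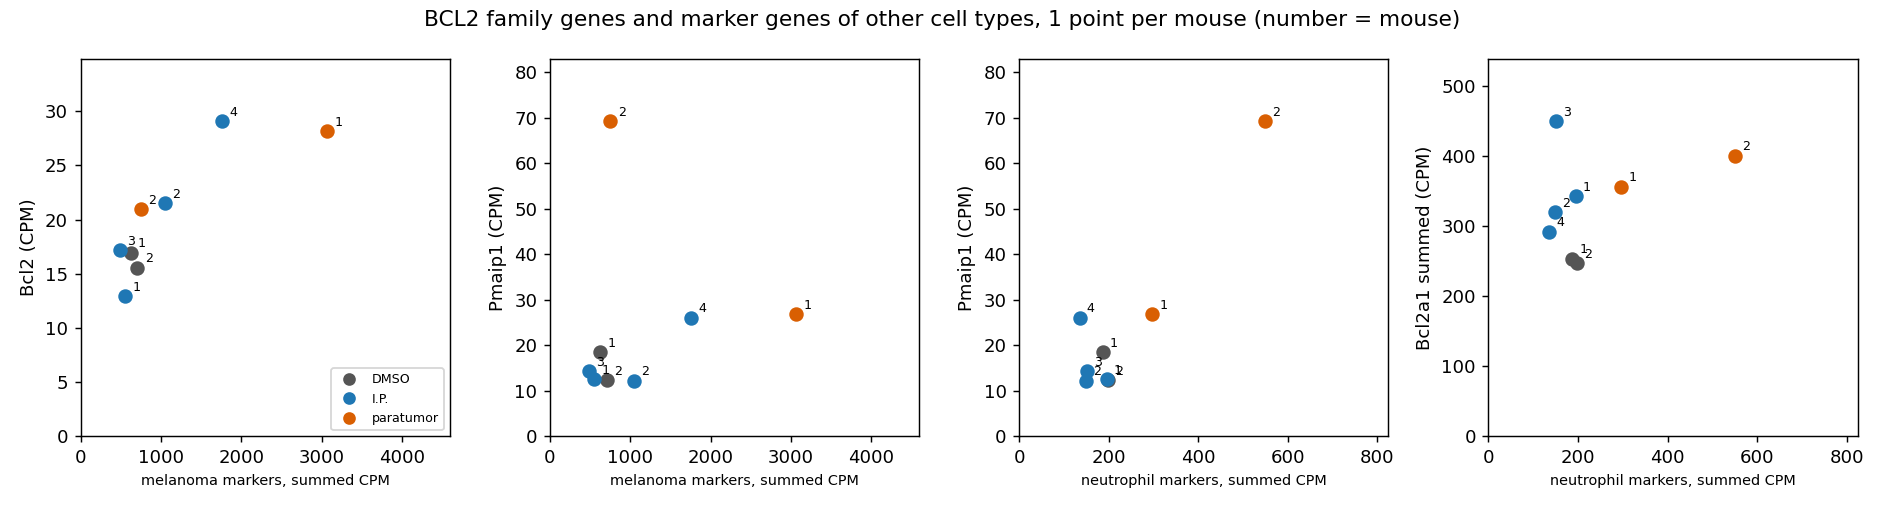
Level in CPM of Bcl2, Pmaip1 and the summed Bcl2a1 copies (vertical axes) against the summed CPM of melanoma or neutrophil markers (horizontal axes), 1 point per mouse with its number. Bcl2 is highest in the 4 mice with the most melanoma marker RNA, and paratumor mouse 2 has both the most Pmaip1 (69.2 CPM) and the most neutrophil marker RNA (549.8 CPM), while for Bcl2a1 I.P. mouse 3 is highest (449.9 CPM) at 150.4 CPM of neutrophil markers.

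Bcl2l11 (chr2:128126038-128162547, plus strand, GRCm38), which encodes BIM, was the member with the widest spread within a treatment. It was at 13.1 and 24.2 CPM in the DMSO mice, 27.9, 18.1, 30.3 and 22.8 CPM in the I.P. mice, and 6.66 and 43.7 CPM in the paratumor mice (99 and 600 counts). The paratumor mice differed 6.56-fold and enclosed all other mice. The log2 change was 0.41 ± 0.90 for paratumor (adjusted p = 0.9999) and 0.40 ± 0.34 for I.P. (adjusted p = 0.980) against DMSO. The sign of the paratumor value rested on the mouse: it was 1.20 without paratumor mouse 1 and -1.55 without paratumor mouse 2.

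Bbc3 (chr7:16308393-16318205, plus strand, GRCm38), which encodes PUMA, also differed between the paratumor mice. It was at 6.72 and 5.40 CPM in the DMSO mice, 13.0, 7.48, 6.38 and 13.7 CPM in the I.P. mice, and 15.9 and 4.30 CPM in the paratumor mice, which differed 3.71-fold. The groups overlapped, with log2 changes of 0.73 ± 0.42 for I.P. (adjusted p = 0.980) and 0.71 ± 0.81 for paratumor (adjusted p = 0.9999). Paratumor mouse 1 was thus the higher of the pair for Bbc3 and the lower for Bcl2l11 and Pmaip1.

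Bax (chr7:45461697-45466898, minus strand, GRCm38), the effector, was the steadiest member, with a 1.44-fold range over all 8 mice. It was at 164.0 and 155.0 CPM in the DMSO mice, 213.0, 169.8, 152.9 and 149.2 CPM in the I.P. mice and 212.5 and 147.7 CPM in the paratumor mice. Its log2 change was 0.10 ± 0.23 for I.P. (adjusted p = 0.984), 0.15 ± 0.32 for paratumor against DMSO (adjusted p = 0.9999) and 0.07 ± 0.28 for paratumor against I.P. (adjusted p = 0.971).

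The balance of survival to death transcripts was described within each mouse as a log2 ratio of counts, which needs no scaling between libraries. For Mcl1 to Pmaip1 it was 4.11 and 5.86 in the DMSO mice, 6.20, 5.77, 5.63 and 4.41 in the I.P. mice and 4.34 and 3.20 in the paratumor mice. The ratio was lowest in paratumor mouse 2, and paratumor mouse 1 lay between DMSO mouse 1 and I.P. mouse 4. For summed Bcl2a1 to Pmaip1 it was 3.78 and 4.33 in DMSO, 4.77, 4.71, 4.97 and 3.49 in I.P. and 3.73 and 2.54 in paratumor mice, so both paratumor mice lay below both DMSO mice, and I.P. mouse 4 lay between the paratumor mice. For Mcl1 to Bcl2l11 the paratumor mice held the highest and the lowest ratio, 6.35 and 3.86, around 4.55 to 5.20 in the 6 others. For Bax to Bcl2 the ratio was 3.27 and 3.32 in DMSO, 4.04, 2.98, 3.16 and 2.36 in I.P. and 2.91 and 2.82 in paratumor mice.

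**Figure D5:**
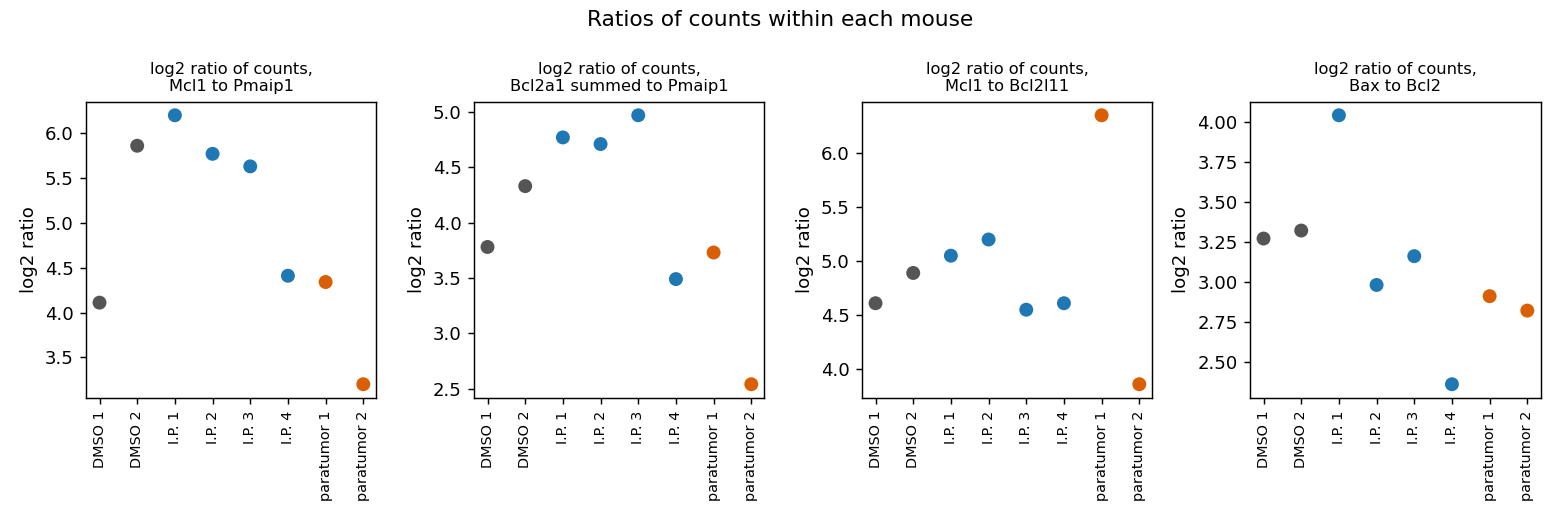
Log2 ratio of counts (vertical axes, which do not start at 0) of 4 pairs of members in each of the 8 mice. Mcl1 to Pmaip1 is lowest in paratumor mouse 2 (3.20), and Mcl1 to Bcl2l11 is highest in paratumor mouse 1 (6.35) and lowest in paratumor mouse 2 (3.86).

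Other genes of the pathway, from lists fixed with earlier results of these data known, held few or no DEGs. Of all genes tested, 2.0%, 5.06% and 7.05% met the rule in the 3 comparisons, so by that share alone lists of this size would hold few. Of 16 further BCL2 family genes, 12, 10 and 12 were tested in the 3 comparisons and 0 were DEGs. Bnip3, a mitochondrial gene of the hypoxia response, had the smallest P among them for I.P. against DMSO (log2 -0.50), and Bnip3l for paratumor against DMSO (0.48). Bak1, the second effector gene, had 4 to 45 counts per library, and Bcl2l2 had 254 counts in I.P. mouse 1, 1 count in paratumor mouse 2 and 24 to 95 in the others. Of 18 caspase and apoptosome genes, 0 were DEGs in any comparison, and the smallest P were those of Dffb (log2 -0.91, I.P. against DMSO), Casp2 (1.0, paratumor against DMSO) and Cycs (0.62, paratumor against I.P.). Of 14 inhibitor of apoptosis and death receptor genes, 1 was a DEG, Birc3, which encodes cIAP2 and was higher in paratumor than in I.P. mice (log2 1.27 ± 0.50, adjusted p = 0.538); without paratumor mouse 2 its value was -0.10, and it also fell short of the rule without I.P. mouse 2, 3 or 4.

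The lists of upstream regulators held more DEGs. Of 7 genes of the FOXO3 and CHOP axis, transcription factors known to induce BH3-only genes and their targets, 4 rose by the DEG rule after I.P. thiostrepton: Chac1 (log2 2.11), Trib3 (1.77), Atf4 (1.24) and Ddit3, which encodes CHOP (1.19). Their adjusted p was 0.980 each. The FOXO genes of the list, Foxo3 (-0.01 ± 0.64) and Foxo1 (0.20 ± 0.41), did not meet the rule. After paratumor thiostrepton 1 of the 7 rose, Atf3 (1.17), and Trib3 (-1.90) and Chac1 (-2.56) were lower in paratumor than in I.P. mice. Of 15 NF-kB feedback genes, 6 rose in paratumor against DMSO mice, among them Nfkbiz (3.19), Tnfaip3 (2.75), Cd83 (2.52) and Nfkbia (2.45), and 1 rose in I.P. against DMSO mice, Tnfaip2 (1.25). In the test of paratumor against I.P. mice, 6 of the 15 were higher, among them Cd83, Tnfaip3, Rel, Nfkb2 and Nfkbie. For Tnfaip3 the groups overlapped, at 120.3 and 568.1 CPM in paratumor and 49.8 to 174.1 CPM in I.P. mice, and so they did for Rel. Nfkbia (0.77 ± 0.85, adjusted p = 0.868) and Nfkbiz (1.24, adjusted p = 0.815) did not meet the rule in that test. I.P. mouse 1 held Nfkbia at 974.7 CPM, above the 549.3 and 612.6 CPM of the paratumor mice, and Nfkbiz at 198.1 CPM, between their 77.9 and 233.8 CPM. Of 18 tested genes of the p53 pathway, Sesn2 rose after I.P. (1.33), Btg2 rose (2.16) and Sesn1 fell (-1.01) after paratumor, and Zmat3 was higher (1.58) and Sesn2 lower (-1.29) in paratumor than in I.P. mice. All of these had adjusted p of 0.273 or more in edgeR's quasi-likelihood test. Several calls ended when 1 mouse was left out. In I.P. against DMSO mice, Atf4 fell short without DMSO mouse 1 (0.85) or I.P. mouse 1, and Trib3 (1.48), Sesn2 (0.97) and Tnfaip2 without DMSO mouse 2. In paratumor against DMSO mice, Atf3 fell short without either DMSO mouse or without paratumor mouse 2 (0.75), and Sesn1 without either DMSO mouse or without paratumor mouse 1 (-0.73). In paratumor against I.P. mice, Trib3 fell short without paratumor mouse 2 (-1.40), Chac1 without I.P. mouse 1 or 4, Sesn2 without paratumor mouse 2 (-0.84) or I.P. mouse 1 or 4, and Zmat3 without paratumor mouse 1 (1.36) or I.P. mouse 2, 3 or 4. Without paratumor mouse 2, Rel (0.47), Nfkb2 (0.47) and Nfkbie (0.93) were below 2-fold in paratumor against I.P. mice, and Cd83 was at 1.49. The list median log2 change was 1.19 for the FOXO3 and CHOP axis after I.P. and 1.34 for the NF-kB genes after paratumor thiostrepton, beside 0.02 for all genes tested.

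Genes whose levels ran most like those of the members were ranked by Pearson's r of log2 CPM over the 8 mice among 9318 genes, as a description in which the points share libraries and depth. For summed Bcl2a1 these were AF251705 (0.955), Spic (0.930), Igbp1 (0.930), Scarb2 (0.924) and Il18bp (0.920). For Mcl1 they were Litaf (0.977), Cbr3 (0.961), Dctn2 (0.959), Kif1c (0.956) and Lrrfip2 (0.948). For Bcl2 they were Plxnc1 (0.962), Btbd3 (0.956), Stambp (0.945), Tbpl1 (0.938) and Met (0.932).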

How the data were processed

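TAM RNA was sequenced from 8 mice, 1 library each. The deposited table holds raw counts per gene as the authors made them. The study's methods name bowtie2 and RSEM, whereas the submitters' processing notes name TopHat2 and edgeR with mm10. The sources thus disagree on the aligner, and the handling of reads shared by gene copies is not given in the sources used here. The counts are whole numbers. Positions are from GENCODE vM21 (GRCm38), which held 93.0% of the symbols.

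From these counts, the 3 comparisons were fitted separately with edgeR 4.0.16 (R 4.3.3, limma 3.58.1): filterByExpr (minimum count 10, total 15), TMM, and the two-sided quasi-likelihood test with Benjamini-Hochberg adjustment over all genes tested. Groups and mouse numbers came from the sample labels, and P measures the spread between mice. An exact two-sided rank-sum test could not go below 0.133 for 4 against 2 mice or 0.333 for 2 against 2. A level of 3 counts equalled 0.169 to 0.218 CPM. Alternatives were no filter, 1 CPM in 2 libraries, other scalings, a likelihood ratio test, DESeq2 1.42.0, a fit of all groups, a replicate block, summed copies and leaving out each mouse. The fits were tested on simulated counts. The members, lists and tests were chosen with earlier results of these data known. Besides the 10 members, a list's genes were named if they were DEGs, up to 4 per list and comparison by smallest P, or else the gene with the smallest P, and the 5 most alike genes among those averaging 5 CPM or more. Bak1 and Bcl2l2 were named outside this rule, after their values were seen.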

Additional observations from a re-analysis of the deposited data

Results flagged for a closer look

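Pmaip1 in I.P. mouse 4, at 26.08 CPM, stood apart from the 12.2 to 14.4 CPM of the 3 other I.P. mice, with a gap of 0.844 of the group's range, above the critical value of Dixon's test. The 10 members and the summed Bcl2a1 copies, 11 in all, were examined in this way, and chance flags about 1 in 20 such groups. That mouse also held the second highest melanoma marker sum (1759 CPM), whose part in the value was not tested.

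The effect of the treatment on Pmaip1 differed between the paratumor and I.P. mice by 1.56 on the log2 scale (adjusted p = 0.398 in edgeR's quasi-likelihood test), with both paratumor mice above all 4 I.P. mice. Without paratumor mouse 2 the difference was 0.72 (adjusted p = 0.460) and did not meet the DEG rule.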

How the results depend on the processing

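Of 299 values of the members under alternatives that kept every mouse, 288 kept direction and side of the criterion, 10 turned direction, all of values that did not meet it, and 1 newly met it; of 176 that left out a mouse, the counts were 143, 25 and 4, and 4 more no longer met it. The cause of these changes was not tested. Correlations of same-numbered deviations (-0.19 to 0.17) showed no pairing of the animals by mouse number. With groups of 2 mice, whose deviations mirror each other, they cannot exclude one. With the number as a replicate block, the log2 change turned to -0.30 for Pmaip1 in I.P. against DMSO, to -0.08 for Bcl2l11 in paratumor against DMSO (also -0.08 with the pairing crossed, chosen after seeing the data), and to -0.38, -0.10 and -0.25 for Bcl2l11, Bax and Bbc3 in paratumor against I.P., where 2 members (Pmaip1 and Bcl2a1a) met the criterion and 391 of all genes instead of 860. Scaled by library size only, paratumor against I.P. gave -0.08 for Bcl2l11, -0.10 for Bcl2a1b, -0.02 for Bax and -0.10 for Bbc3. A fit of all groups gave 160 DEGs of all genes in I.P. against DMSO instead of 243. Leaving out 1 mouse, the members meeting the criterion numbered 0 to 1 (Mcl1, without DMSO mouse 2) in I.P. against DMSO, 0 (without either DMSO mouse) to 2 (Pmaip1 and Bcl2l11 without paratumor mouse 1, Bbc3 and Bcl2l11 without paratumor mouse 2) in paratumor against DMSO and 1 (Bcl2l11 in place of Pmaip1 without paratumor mouse 2) to 2 (Bcl2a1a and Pmaip1, without I.P. mouse 3) in paratumor against I.P., and the DEGs of all genes 116 (without DMSO mouse 1) to 361, 113 (without DMSO mouse 2) to 3432 (without paratumor mouse 2) and 632 to 2115 (without paratumor mouse 2). The leave-one-out log2 changes that turned ran, for I.P. against DMSO, from -0.70 to 0.52 (Bcl2a1a), -1.78 to 0.89 (Xcr1), -0.01 to 1.16 (Mcl1), -0.02 to 0.16 (Bax), -0.09 to 0.46 (Bcl2l1) and -0.24 to 0.40 (Pmaip1); for paratumor against DMSO, from -1.55 to 1.20 (Bcl2l11), -0.32 to 0.85 (Mcl1), -0.07 to 2.02 (Birc3), -0.14 to 0.35 (Bax) and -0.52 to 1.34 (Bbc3); and for paratumor against I.P., from -1.90 to 0.82 (Bcl2l11), -0.10 to 0.09 (Bcl2a1b), -0.10 to 1.95 (Birc3), -0.21 to 0.31 (Bax), -0.48 to 2.51 (Sox10) and -1.24 to 0.65 (Bbc3). With 2 mice in a group, single mice set the members' values.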
